A study of Rattus norvegicus with 6 samples.

Results

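The pyruvate dehydrogenase kinases measured here are Pdk1, Pdk2 and Pdk4, read by 4 probe sets of the rat liver arrays, out of 4736 genes and 8740 probe sets in all. The rule takes every probe set whose only gene symbol is one of these 3 and uses no measured value, though the kinases were picked for description with earlier results of these data known. Pdk2 had a pair of probe sets and the other kinases 1 each. Pdk3, the remaining member of the family, was looked for but is the only gene symbol of no probe set, so it was not analysed here. Cross-hybridisation between the kinases was not checked, since no probe sequences were used here, and this limits each value given for a single kinase. Total RNA from livers of male Sprague Dawley rats was hybridised to Affymetrix RG_U34A arrays, 1 array per sample. The NASH group, named for nonalcoholic steatohepatitis, had 3 samples from rats given a liquid diet with 70% corn oil at 220 kcal daily for each kilogram of body mass raised to the power 3/4. The Control group had 3 samples from rats given one with 5% corn oil at 187 kcal on that basis. Both groups were fed by total enteral nutrition, that is by a tube into the gut, and for 3 weeks. Fat content, energy supply and the share left for the rest of the diet differ together between the diets and cannot be told apart. The make-up of that rest is not given here. The labels do not say that each sample is a separate animal, so a p-value here reflects the spread among samples, which may be technical.

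The pyruvate dehydrogenase complex sits in the mitochondrial matrix and turns pyruvate from sugar into acetyl-CoA. Its kinases phosphorylate the alpha subunit of its first enzyme, E1, and switch the complex off, and a pair of phosphatases switches it on again. When a tissue burns fat, kinase activity is known to hold the complex off and so to spare pyruvate for glucose synthesis. Pdk2 is the widely expressed isoform and a major one in liver. Pdk4 is known to be induced by fasting, by fatty acids through the receptor PPARα, by glucocorticoids and by the factor FOXO1, and to be repressed by insulin. Pdk1 is known as a target of the hypoxia factor HIF-1.

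The deposited MAS5 signals had no common scale, with trimmed means of 73.6 to 107 in NASH arrays and 88.3 to 117 in Control arrays, and were quantile normalized. Values called log2 signals below are log2 of the normalized signal plus an offset of 2.21. In NASH 2 the 16 skeletal muscle marker probe sets summed to a deposited signal of 2830, while NASH 1 and NASH 3 had 266 and 197 and Control arrays 199 to 321. The 15 fat marker probe sets summed to 5437 in NASH 2, with 741 in NASH 1, 571 in NASH 3 and 589 to 710 in Control arrays. Deposited signals of the muscle actin Acta1 were 1322 in NASH 2 and at most 18.9 elsewhere, and no marker stood at exactly 0. Hepatocyte marker probe sets, 35 in number, summed to 72195 to 97192 in NASH arrays and to 87771 to 120318 in Control arrays, so the labelled tissue carried its defining markers on all 6 arrays. Control 2 stood apart in Sds, a serine dehydratase of gluconeogenic liver, with a deposited signal of 1691, against 10.6 to 93.4 in NASH arrays and at most 81.4 in the other Control arrays. The clock gene Dbp was also high there, at 127 against at most 10.1 on any NASH array and 4.44 on the other Control arrays. The ratio of 3′ to 5′ actin signal, a sign of RNA quality, was 2.18 to 2.93 in NASH arrays and 2.52, 2.15 and 5.07 in Control 1, 2 and 3. Whether fewer cells of a type or less RNA per cell lies behind a difference cannot be told apart in such bulk tissue.

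Pdk4 had its highest log2 signals in the NASH livers, Pdk2 had its highest in the Control livers, and Pdk1 overlapped between the diets. None of the 4 probe sets passed the test across all probe sets, limma with Benjamini-Hochberg adjustment, at an adjusted p under 0.05. Among all 5244 probe sets tested 7 passed, which is 0.133%. At an unadjusted p under 0.05 lay 3 of the 4 kinase probe sets, against 7.86% of all tested, namely Pdk4 with NASH higher (3.81% of all) and both Pdk2 probe sets with NASH lower (4.04% of all). The groups did not overlap for the same 3, against 14.3% of all, of which 6.54% had NASH higher and 7.76% NASH lower. Both Pdk2 probe sets read the same gene and are not independent. Pdk4 passed the filter on dim probe sets, described below, through its NASH values. These counts are therefore a description only.

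**Figure D1:**
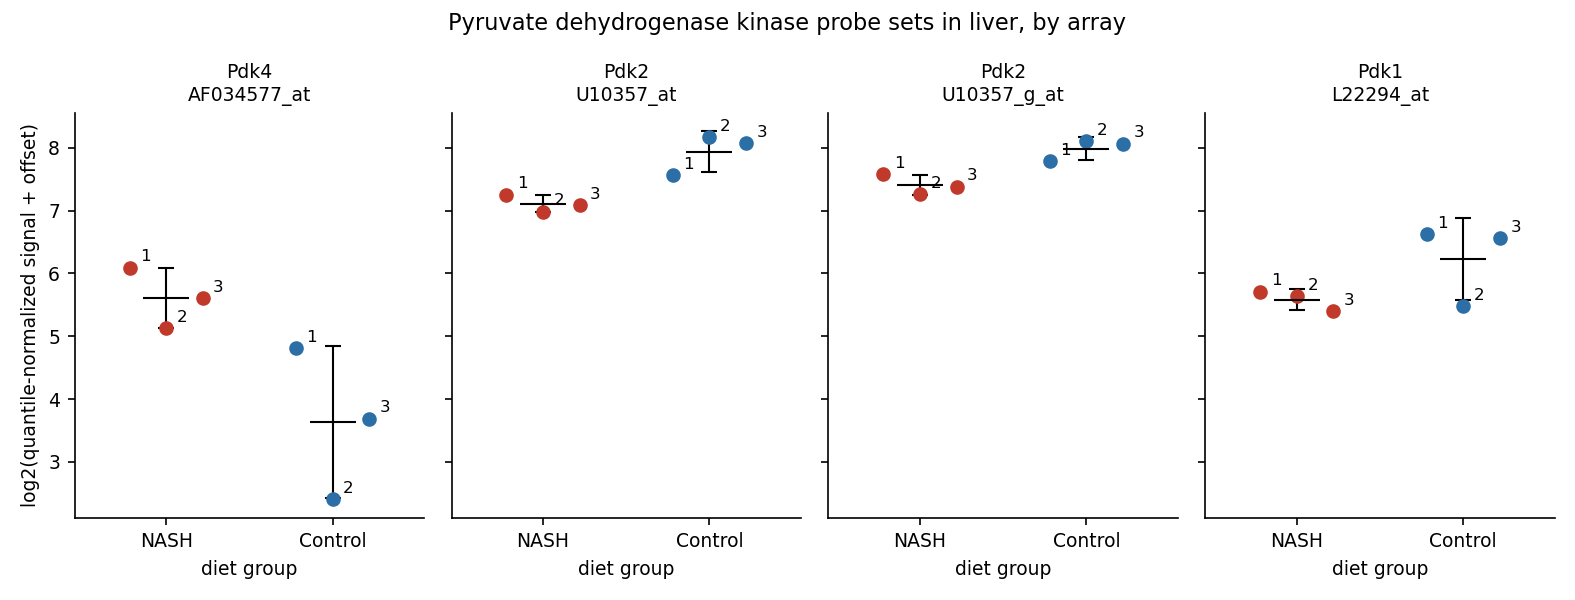
Log2 signals (vertical axis, log2 of quantile-normalized signal plus offset) of each kinase probe set, with NASH at the left and Control at the right of each panel. Points are arrays with their replicate number, and bars are the mean and SD of 3 arrays. For Pdk4 every NASH point lies above every Control point, for both Pdk2 probe sets every NASH point lies below, and for Pdk1 Control 2 lies among the NASH points.

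Pdk4 (probe set AF034577_at, gene on rat chromosome 4) is the kinase that fat supply and fasting are known to induce. Its deposited signals were 69.7, 34.9 and 34.1 in NASH 1, 2 and 3, against 29.4, 4.29 and 9.35 in Control 1, 2 and 3. The weakest NASH arrays and the strongest Control array were close, and the Control arrays differed widely among themselves. On the log2 scale Pdk4 measured 6.09, 5.13 and 5.60 in the NASH arrays, against 4.81, 2.40 and 3.69 in the Control arrays. NASH averaged 5.61 ± 0.48 and Control 3.63 ± 1.21 (SD, n = 3 each), and a gap of 0.32 parted the groups. The difference of 1.97 ± 0.57 (standard error) is a 3.93-fold higher level in NASH, with a 95% interval of 1.57-fold to 9.86-fold. It did not pass, with a limma adjusted p of 0.452 (unadjusted p = 0.00902). Among all probe sets tested, 0.629% had an absolute difference as large or larger and 1.91% had a p as small or smaller.

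The Control mean of Pdk4 lay under the filter on dim probe sets, a mean log2 signal of 3.94, so the probe set passed that filter through its NASH values. Without any filter its limma adjusted p was 0.545. The difference was 1.37 without Control 2, in which Pdk4 was lowest (limma adjusted p = 0.459), and 2.53 without Control 1, the Control array in which it was highest (limma adjusted p = 0.213). With an offset of 16, which shrinks differences of dim probe sets, it was 1.18. NASH 2, the array with muscle and fat transcripts, held the lowest Pdk4 log2 signal of the NASH arrays, and without it the difference was 2.22. Instrument records hold wash settings for 4 arrays and are blank for NASH 3 and Control 2. The difference was 1.39 among the arrays with settings and 2.99 between the other pair.

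Pdk2, the widely expressed isoform, was measured by U10357_at and U10357_g_at, both drawn from the same sequence entry, and its gene lies on rat chromosome 10. Deposited signals of U10357_at were 163, 124 and 101 in NASH 1, 2 and 3, against 225, 255 and 273 in Control 1, 2 and 3. Its log2 signals were 7.26, 6.99 and 7.09 in NASH, against 7.57, 8.17 and 8.07 in Control. All NASH values lay below all Control values, by a gap of 0.31, and the Control array closest to NASH was Control 1. NASH averaged 7.11 ± 0.14 and Control 7.94 ± 0.32 (SD, n = 3 each). The difference was −0.83 ± 0.23 (standard error), or 1.77-fold lower in NASH with a 95% interval of 1.23-fold to 2.55-fold. Its limma adjusted p was 0.437 (unadjusted p = 0.00664), and 1.51% of probe sets tested had a p as small or smaller.

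The second Pdk2 probe set, U10357_g_at, gave deposited signals of 210, 153 and 126 in NASH 1, 2 and 3, against 258, 244 and 272 in Control 1, 2 and 3. On the log2 scale these were 7.58, 7.26 and 7.38 in NASH, against 7.78, 8.11 and 8.07 in Control, again without overlap and with a gap of 0.21. Means were 7.41 ± 0.16 in NASH and 7.99 ± 0.18 in Control (SD, n = 3 each). The difference was −0.58 ± 0.20 (standard error), or 1.495-fold lower in NASH with a 95% interval of 1.09-fold to 2.05-fold, and a limma adjusted p of 0.535 (unadjusted p = 0.0195). Within an array U10357_at lay below U10357_g_at by 0.28 to 0.32 in NASH, whereas U10357_at minus U10357_g_at was −0.22, 0.06 and 0.0045 in Control 1, 2 and 3. The probe sets therefore gave the same order of groups and differed by 0.25 in the size of the difference. They share their target and are not replicates of each other.

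Pdk1 (L22294_at, gene on rat chromosome 3) had deposited signals of 53.0, 49.1 and 29.6 in NASH 1, 2 and 3, against 115, 44.5 and 92.2 in Control 1, 2 and 3. Log2 signals were 5.71, 5.64 and 5.40 in NASH, against 6.63, 5.48 and 6.57 in Control. Control 1 and Control 3 lay above every NASH array, while Control 2 lay below NASH 1 and NASH 2. NASH averaged 5.58 ± 0.16 and Control 6.23 ± 0.65 (SD, n = 3 each). The difference was −0.64 ± 0.32 (standard error), with a 95% interval of −1.39 to 0.11 and a limma adjusted p of 0.619. Without Control 2 the difference was −1.04 (limma adjusted p = 0.176), and it was −0.95 among the arrays with wash settings and −0.070 between NASH 3 and Control 2. Control 2 was thus the lowest Control array for Pdk4 and Pdk1 and the highest for Pdk2.

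To ask if the kinases differed unequally between the diets, the log2 difference between the brightest probe sets of 2 kinases was taken within each array. For Pdk4 minus Pdk2 it was −1.48, −2.13 and −1.78 in NASH 1, 2 and 3, against −2.97, −5.71 and −4.38 in Control 1, 2 and 3. The group means differed by 2.55. The groups could not overlap here, since Pdk4 and this Pdk2 probe set each lay apart in opposite directions. For Pdk4 minus Pdk1 it was 0.38, −0.50 and 0.21 in NASH, against −1.82, −3.07 and −2.88 in Control, a difference of 2.62. For these pairs an exact permutation test, two-sided, gave p = 0.1, the smallest that 3 against 3 arrays allow, and 0.15 after Benjamini-Hochberg adjustment over 3 pairs. For Pdk4 minus Pdk2 this unadjusted p was fixed once each kinase lay apart, and it adds nothing to that. For Pdk2 minus Pdk1 the difference of 0.06 was small beside its spread (exact permutation p = 0.9, adjusted p = 0.9), with SDs of 0.18 in NASH and 0.78 in Control. Being taken within an array, such differences describe a kinase relative to another and do not say which kinase moved. Unequal change was not established by these tests. Pdk4 minus Pdk2 gave an exact permutation p of 0.2 without NASH 1, without NASH 2 and without NASH 3. Its differences were then 2.39, 2.74 and 2.55. With groups of unequal size another split of the arrays can be as extreme without overlap of the groups. Pdk4 minus Pdk1 gave an exact permutation p of 0.1 in the same fits. With an offset of 16 the differences were 1.73 for Pdk4 minus Pdk2 and 1.72 for Pdk4 minus Pdk1. For Pdk2 minus Pdk1 it was 0.52 without Control 2 (exact permutation p = 0.1, the smallest possible, unadjusted).

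**Figure D2:**
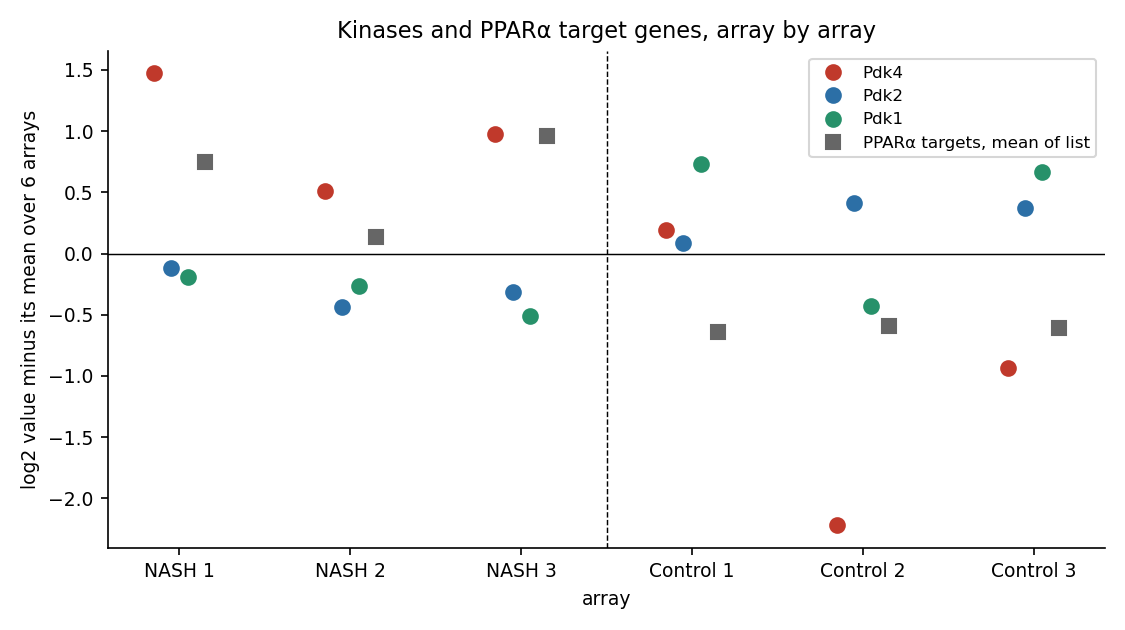
Log2 signals of Pdk4, Pdk2 (U10357_g_at) and Pdk1, each minus its mean over the 6 arrays (vertical axis), with the mean over 19 PPARα target genes treated likewise, for each array (horizontal axis). Pdk4 lies lowest in Control 2 and highest in NASH 1, while the PPARα target mean is nearly level over the 3 Control arrays.

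The bases before the start sites of Pdk4 and Pdk2 are shown because these kinases lay in opposite directions in the NASH livers without overlap of the groups. Each is the 250 bases upstream of the annotated start, read 5′ to 3′ on the gene's strand, from RefSeq on build GRCr8. The Pdk4 stretch is chr4:34568330-34568579 on the minus strand, and that of Pdk2 is chr10:80483913-80484162 on the minus strand. Capitals mark matches, on either strand, to the letters searched.
Pdk4: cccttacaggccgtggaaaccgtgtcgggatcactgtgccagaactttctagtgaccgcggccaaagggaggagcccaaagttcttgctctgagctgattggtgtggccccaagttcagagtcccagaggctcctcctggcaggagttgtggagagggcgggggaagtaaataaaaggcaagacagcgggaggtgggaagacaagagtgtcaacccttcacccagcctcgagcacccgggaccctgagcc
Pdk2: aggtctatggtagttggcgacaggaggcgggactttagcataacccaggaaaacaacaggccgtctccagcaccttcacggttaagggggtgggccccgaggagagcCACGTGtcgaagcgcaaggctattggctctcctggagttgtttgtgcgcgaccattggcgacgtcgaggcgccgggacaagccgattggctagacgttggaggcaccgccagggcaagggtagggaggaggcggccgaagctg

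The letters searched were AGGTCA, the half-site of nuclear receptors, a direct repeat of it with 1 base between (DR1, the PPAR type), TGTTTAC of forkhead factors, and ACGTG and GCGTG of the hypoxia type. The Pdk4 stretch held none of them in these exact letters. The Pdk2 stretch held the palindrome CACGTG at 143 to 138 before the start, which by itself gives ACGTG on both strands. The Pdk1 stretch held GCGTG at 131 to 127 and at 54 to 50 before the start. In windows of that length before 33469 RefSeq genes, AGGTCA occurred in 14.1%, the DR1 repeat in 0.0508%, TGTTTAC in 3.21%, ACGTG in 16.6% and GCGTG in 25.9%. A match is a description of letters, and binding was not measured.

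The genes of the complex that the kinases act on showed no common direction. Of 7 genes of the complex and its phosphatases on the array, 5 were tested, 3 had positive and 2 negative differences, none was called, and the median difference was 0.05 beside −0.02 over all probe sets tested. Pdhb, the E1 beta subunit, differed by −0.61 ± 0.24 with 1 probe set, on which the groups did not overlap, and by −0.51 ± 0.25 with its brighter one (limma adjusted p = 0.594 and 0.619). Pdha1, the E1 alpha subunit that the kinases phosphorylate, differed by 0.59 with its dimmer and −0.03 with its brighter probe set. Dlat, the acetyltransferase core to which the kinases bind, differed by 0.67, 0.24 and 0.20 over its 3 probe sets, and Pdhx, which anchors the E3 enzyme, by 0.45. All tested probe sets of Dlat, Pdha1 and Pdhx were highest in NASH 2, the array with muscle and fat transcripts, while those of Pdhb and Pdp2 were not. Without both Control 2 and NASH 2, the Dlat probe set D00092_s_at differed by −0.24. The list mean was −0.10, 0.42 and −0.26 in NASH 1, 2 and 3, against 0.15, −0.39 and 0.18 in Control 1, 2 and 3. The phosphatase Pdp2 differed by 0.65 and 0.05 over its pair of probe sets. Limma adjusted p-values of these genes other than Pdhb lay at 0.725 and above.

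**Figure D3:**
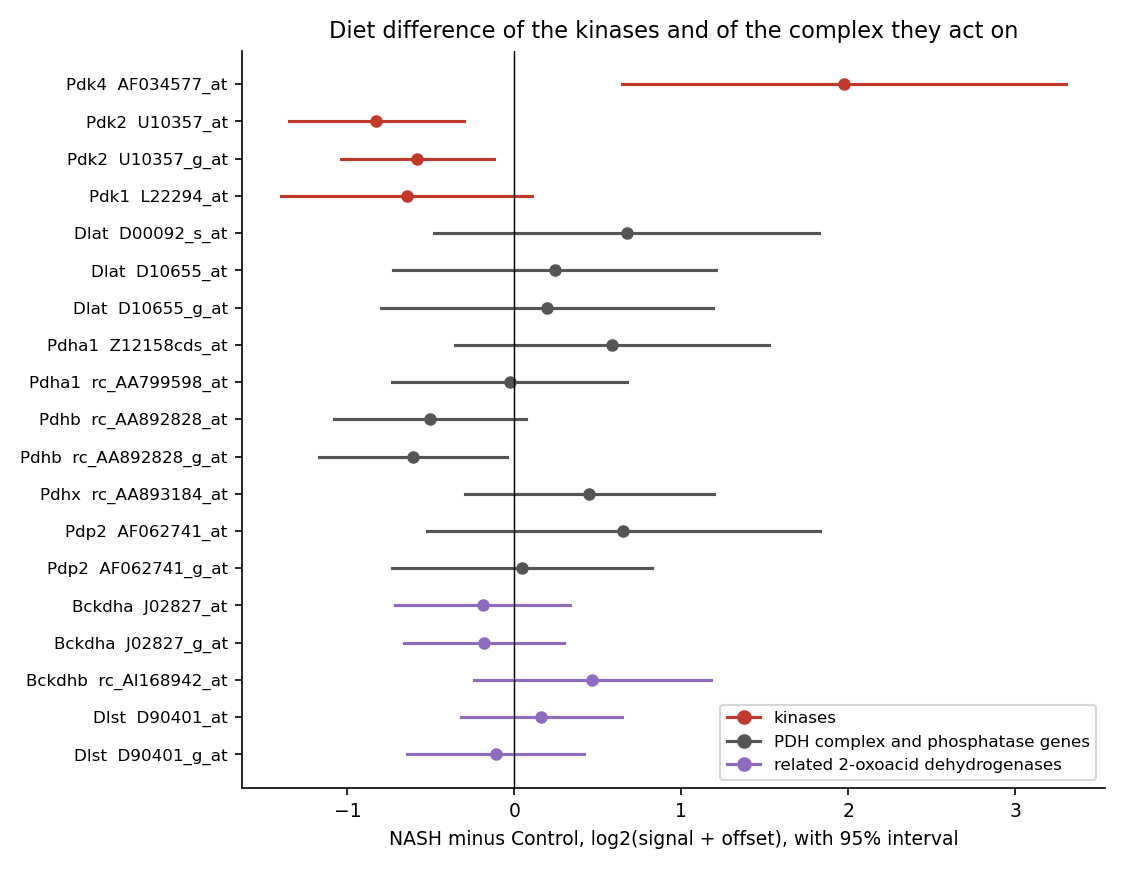
NASH minus Control differences (horizontal axis, log2) with 95% intervals from limma, for the 4 kinase probe sets in red, the tested probe sets of complex and phosphatase genes in grey and those of related dehydrogenases in purple. The intervals of Pdk4 and both Pdk2 probe sets do not include 0, and among the others 1 Pdhb probe set does the same.

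Among the related dehydrogenases of branched-chain amino acids and of 2-oxoglutarate, 3 genes were tested and none was called (median difference 0.16). Bckdhb differed by 0.47, Bckdha by −0.18, and Dlst by 0.16 and −0.11 over its pair of probe sets. Bckdk, the branched-chain kinase of the same protein family as the Pdks, lay below the filter.

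Genes that supply or use pyruvate had differences in both directions around a median of −0.01. Of 9 tested genes, 4 had positive and 5 negative differences and none was called. Pklr, the liver pyruvate kinase, differed by −1.84 ± 0.38 (limma adjusted p = 0.208), and Slc16a1, a carrier of lactate and pyruvate, by 1.14 ± 0.42 (adjusted p = 0.571), each without overlap of the groups. A dimmer Slc16a1 probe set differed by 0.78 with overlapping groups. The alanine transaminase Gpt differed by −0.52 and the pyruvate kinase Pkm, mainly of other tissues, by 1.00. Pkm was highest in NASH 2, with a log2 signal of 8.33, and without that array it differed by 0.15. Mpc1 of the mitochondrial pyruvate carrier differed by −0.13 and pyruvate carboxylase Pc by −0.12, with 95% intervals of −0.37 to 0.12 and −0.51 to 0.28. Of 5 tested tricarboxylic acid cycle genes none was called (median difference 0.26). Suclg1, a succinyl-CoA ligase subunit, differed by 0.60 and 0.33 over its probe sets without overlap of the groups on either. Citrate synthase Cs differed by 0.91, Idh3g by 0.26 and Sdha by 0.16, with limma adjusted p-values from 0.652 to 0.891.

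PPARα target genes, a class to which Pdk4 belongs, had mostly positive differences. They were listed with earlier results of these data known, so their counts are a description and no independent evidence of a direction. Of 19 tested genes 18 had positive differences and 1 (Cyp4a8) a negative one, with a median of 1.06. By the brightest probe set 1 was called higher, the acyl-CoA thioesterase Acot2 (3.25 ± 0.31, limma adjusted p = 0.0225), where 0.0953% of all probe sets were called higher. A dimmer Acot2 probe set differed by 1.07 and was not called (limma adjusted p = 0.503). The fatty acid transporter Cd36 differed by 1.64 with its brighter probe set, which was not called (limma adjusted p = 0.145). Its dimmer probe set was called (2.98 ± 0.35, limma adjusted p = 0.0342). Its log2 signals were 5.44, 5.89 and 5.09 in NASH, against 2.83, 2.51 and 2.14 in Control, so it passed the filter on dim probe sets only through its NASH values and had to differ. The Acot2 call was lost with any array other than NASH 2 left out (adjusted p of up to 0.103) and that of Cd36 with any Control array left out (0.0623 to 0.0942). Groups lay apart with NASH higher for 13 of the 19, against 6.54% of all probe sets tested. Acaa2 and Acadl of beta-oxidation differed by 1.06 and 1.00. The list mean, each gene centred over the arrays, was 0.75, 0.14 and 0.96 in NASH 1, 2 and 3, against −0.64, −0.59 and −0.61 in Control 1, 2 and 3. Pdk4, centred likewise, measured 1.47, 0.51 and 0.98 in NASH, against 0.19, −2.22 and −0.93 in Control. In both, NASH 2 was the lowest NASH array, whereas the Control arrays were nearly level for the list and far apart for Pdk4.

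Lists for the other known inputs to Pdk4, FOXO1 and glucocorticoids, held differences in both directions. Of 4 tested genes that FOXO1 drives and insulin represses, 1 was called, Igfbp1, which fell by 1.76 ± 0.21 on the log2 scale (limma adjusted p = 0.0342, with 0.0381% of all probe sets called lower). This call was lost with any array left out, at adjusted p-values of 0.0623 to 0.224. Pck1, the gluconeogenic carboxykinase, differed by 1.12 (adjusted p = 0.619), Irs2 by −0.26 and the insulin receptor Insr by 0.02. Of 5 tested glucocorticoid-induced genes none was called, with a median of −0.51. The phosphatase Dusp1 differed by −1.32 ± 0.21 (limma adjusted p = 0.0881), without overlap of the groups, which held for all its 3 probe sets. Sds differed by −1.99 ± 1.32, Tat by 0.37 and Sgk1 by −0.51. The mean of this list was 0.10, −0.35 and −0.74 in NASH 1, 2 and 3, against −0.13, 1.25 and −0.13 in Control 1, 2 and 3, and so was highest in Control 2, where Pdk4 was lowest. Sds weighed most in this, with a log2 signal of 10.8 in Control 2 against 4.07 to 6.45 on the other arrays. Dusp1 and Tdo2 were also highest in Control 2, while Tat and Sgk1 were not. What part the state of that sample has in the Pdk4 difference was not tested.

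Of 10 tested HIF-1 targets, the class of Pdk1, none was called, 4 had positive and 6 negative differences, and the median was −0.05. Pfkl differed by 0.77, Aldoa by 1.33, Slc2a1 by −0.29, and Vegfa by −0.33, −0.31 and 0.26 over its 3 tested probe sets. Aldoa was highest in NASH 2, with a log2 signal of 9.18, and without that array it differed by 0.38. Of 10 tested factors known to act on the kinase genes none was called, with a median of −0.15. The glucocorticoid receptor Nr3c1 differed by −0.54 ± 0.19 (limma adjusted p = 0.544) and by −0.66 with a dimmer probe set, without overlap of the groups on either. The PPAR partner Rxra differed by 0.54, Ppara by −0.61 and Ppard by −0.34, and Foxo1 and Hif1a, given here outside the rule for naming, by 0.09 and 0.23.

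List means of muscle and fat markers were highest in NASH 2, though the muscle marker Myh4 was lowest there. The part of these markers in the kinase differences was not tested. Of 10 tested skeletal muscle markers 9 had positive differences and none was called (median 0.97), with Tnnt3 at 2.08, Pygm at 1.02, Acta1 at 3.46 and Cox6a2 at 0.39. All 7 tested fat markers had positive differences and none was called (median 1.13), with Cidea at 2.17, Ucp1 at 3.12, Lipe at 1.13 and Adrb3 at 0.39. List means in NASH 1, 2 and 3 were −0.38, 2.29 and −0.25 for muscle, against −0.81, −0.26 and −0.59 in Control 1, 2 and 3. Those for fat were −0.25, 2.28 and −0.03 in NASH, against −0.81, −0.70 and −0.49 in Control. Pdk4 is also made by muscle and fat, and in NASH 2 its log2 signal was the lowest of the NASH group. Of 14 tested hepatocyte markers 5 had positive and 9 negative differences and none was called (median −0.07), with F10 at −0.80, Otc at −0.70 (0.080 with a dimmer probe set), Ambp at −0.42, and Alb at −0.057 with its brightest and −0.35 with a dimmer probe set.

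For each kinase the probe sets most like it were those with the highest Pearson r of log2 signals over the 6 arrays, among 4295 tested probe sets with 1 gene symbol. With so few arrays, which share the diet contrast, many reach a high r: 55 exceeded 0.9 for Pdk4, 116 for Pdk2 and 47 for Pdk1. Most like Pdk4 were Inhbe, an activin subunit made in liver (r = 0.983), Litaf with both its probe sets (0.977 and 0.963) and the small GTPase Rhob (0.968). Inhbe differed between the diets by 0.86, Rhob by 0.90 and Litaf by 0.59 and 0.58, each less than Pdk4. Most like Pdk2 were the syndecan Sdc4 (r = 0.995), the cytochrome oxidase assembly factor Coa3 (0.993), the aldehyde reductase Akr7a2 (0.990) and Pou3f2 (0.985), with differences from −0.84 to −0.61. Most like Pdk1 were Hnrnpa2b1 (r = 0.992), the hepatic lipase Lipc (0.981), Syngr1 (0.976) and Rpp21 (0.970). These differed by −0.63 to −0.37.

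**Figure D4:**
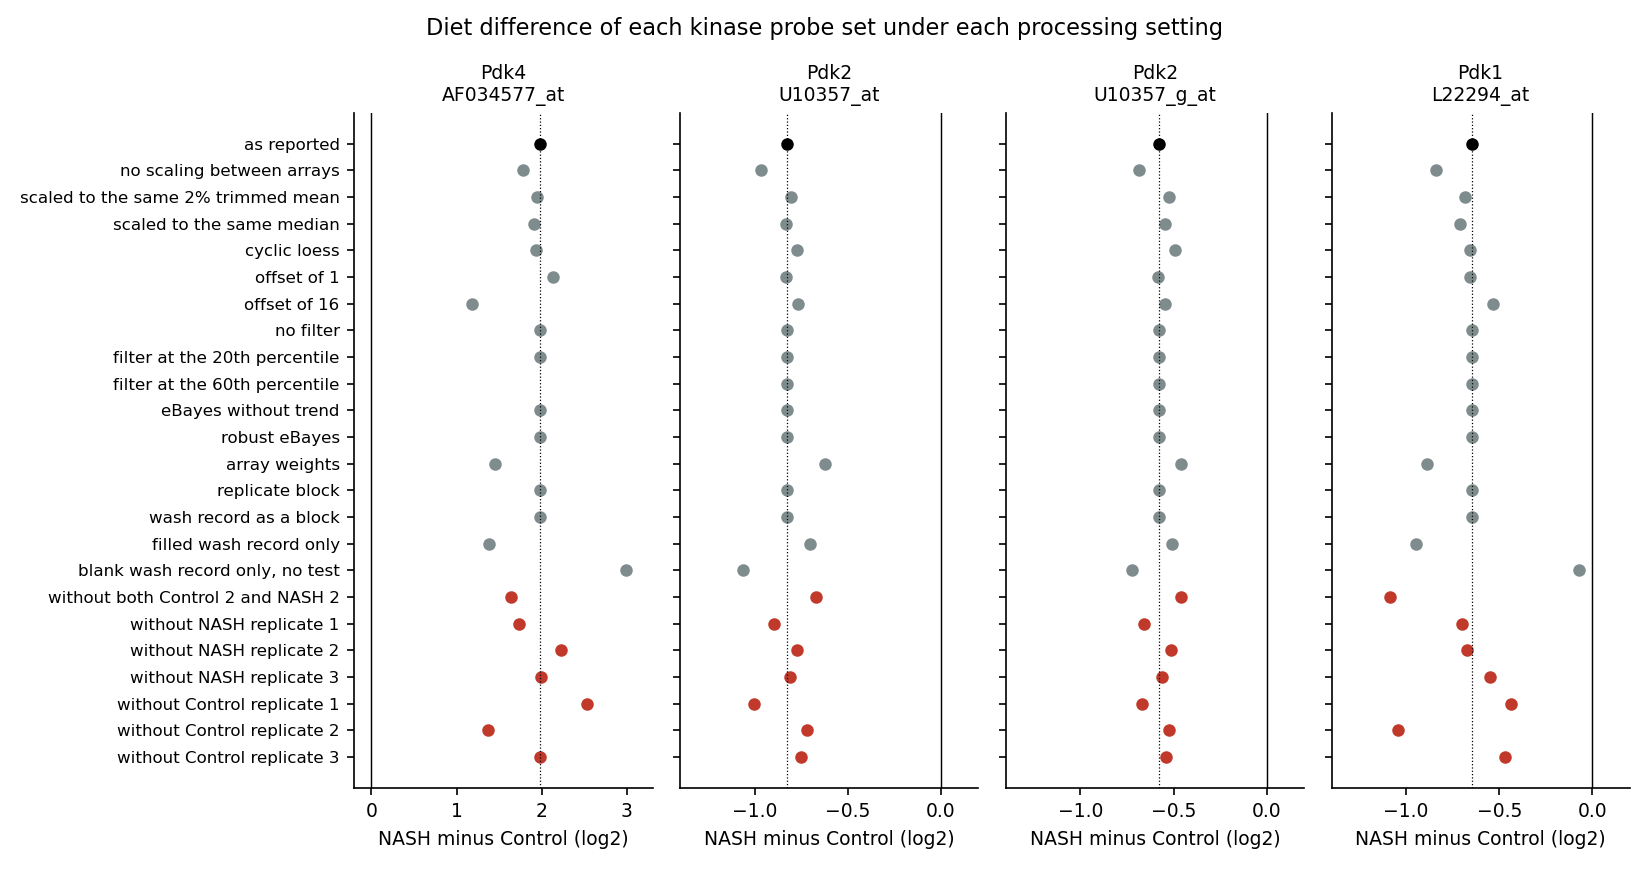
NASH minus Control difference (horizontal axis, log2) of each kinase probe set under each processing setting (vertical axis). Settings named as without certain arrays are in red, and the reported value is in black with a dotted line. Other settings, including the subsets by wash record, are in grey. No point crosses 0, and Pdk1 comes closest to it, at −0.070, between NASH 3 and Control 2. For Pdk4 and Pdk2, whose groups lay apart, leaving out arrays could hardly move a point across 0.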

How the data were processed

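The deposited values are linear MAS5 intensity values, 1 per probe set and array; the authors used MAS5 per the submitters' processing notes, whose version and scaling target no source used here gives. Instrument records supplied array type, tissue and wash settings, per the file headers. Groups came from the sample titles, since every description carries the text of 1 Control sample. Arrays were quantile normalized on all 8799 probe sets, the offset of 2.21 (10th percentile of deposited values) was added and log2 taken. Fold changes on this scale understate those of dim probe sets. After 59 array controls were left out, 5244 of 8740 probe sets with a mean log2 above the 40th percentile (3.94) were tested with limma 3.58.1 (R 4.3.3; lmFit, eBayes with trend), NASH minus Control, with Benjamini-Hochberg adjusted p under 0.05 as a call. The fit was tested on simulated data. The number of arrays limits the precision.

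Symbols came from the platform annotation, which gave 7006 probe sets 1 symbol, 308 several and 1426 none; the last are unnamed here. A list counts a gene by its brightest tested probe set. Named were all kinase probe sets, up to 4 genes with the smallest p from each pathway list and from the muscle, fat and hepatocyte lists (other marker lists are given as counts), and the 4 probe sets most like each kinase; other probe sets of these genes and a few further members are named beside them. The kinases and the lists were chosen with earlier results of these data known. Other settings tried were the scaling method, the offset, the filter, the trend and a robust prior in limma, array weights, blocks for replicate number or wash record, and fits without single arrays. Promoter bases are from the RefSeq table of build GRCr8, in which all 3 kinases matched.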

Additional observations from a re-analysis of the deposited data

How the results depend on the processing

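In 16 alternatives the kinase differences were computed anew, and each kinase probe set had the direction reported in all 16. In the remaining ones, 6 for Pdk4 and 7 for each other probe set, the filter, the variance prior or a balanced block leaves the difference as it is by construction. Among the 16, changing the offset, weighting arrays or leaving arrays out could hardly reverse Pdk4 or Pdk2, whose groups did not overlap. The direction in those settings therefore adds little for these kinases. No kinase was called in the alternatives with a test, 21 for Pdk4 and 22 for each other probe set. Limma adjusted p-values over these alternatives lay between 0.190 and 0.906 for Pdk4, from 0.297 for U10357_at, from 0.427 for U10357_g_at and from 0.176 for Pdk1. Leaving out 1 array at a time gave differences of 1.37 to 2.53 for Pdk4, −1.004 to −0.72 for U10357_at, −0.67 to −0.51 for U10357_g_at and −1.04 to −0.44 for Pdk1. Between NASH 3 and Control 2, whose wash records are blank, the differences were 2.99 for Pdk4 and −0.070 for Pdk1. Pdk4 fell below the filter at the 60th percentile and has no value there. For Pdk2 minus Pdk1 the difference was −0.00836 with an offset of 16 and −0.23 (without Control 1) to 0.52 (without Control 2) with 1 array left out, and 0.63 without both Control 2 and NASH 2. Pdk4 minus Pdk1 was 1.72 and Pdk4 minus Pdk2 was 1.73 with an offset of 16.

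The number of probe sets called, 7 in the reported fit (5 higher, 2 lower), was 14 without scaling (8 higher, 6 lower), 0 without a filter by limma (633 had a p under 0.05 before adjustment, and the smallest adjusted value was 0.0553), 3 without a trend, 18 with array weights, 3 with the wash record as a block, 1 among arrays with wash settings and 16 without both Control 2 and NASH 2. Scaling to the median called 3 higher and 3 lower. With 1 array left out the number was 0 by limma (without NASH 3, Control 1 or Control 3, with 265, 511 and 415 at an unadjusted p under 0.05), 1 (without NASH 1 or Control 2) and 17 (without NASH 2). Without scaling the median difference of all probe sets was −0.17. The labels do not say that replicate numbers pair the samples. Deviations of same-numbered arrays correlated at −0.021 to 0.073, and 3 of 6 arrays correlated best with their own number. These values cannot settle whether the samples were paired. With the replicate block 1 probe set was called, and the limma adjusted p of Pdk4 was 0.190, while its difference of 1.97 cannot change in this balanced block.

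Among 47 other named probe sets, none of the sign changes concerned a called one. Without both Control 2 and NASH 2, Dlat (D00092_s_at) differed by −0.24, Pkm by −0.12 and Idh3g by −0.22. Sdha differed by −0.0265 with array weights, Insr by −0.093 without scaling and Sds by 0.40 among arrays with wash settings. With 1 array left out Idh3g ranged from −0.0492 to 0.41, Sdha from −0.0439 to 0.31 and Insr from −0.22 to 0.22. Calls were lost in 8 alternatives for Acot2, 7 for Cd36 and 12 for Igfbp1, all without a change of direction; with 1 array left out Acot2 was called in 1 of 6 fits (without NASH 2), Cd36 in 0 of the 3 in which it passed the filter, and Igfbp1 in 0 of 6. The cause of these changes was not tested.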

Other observations

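Marker lists of the remaining liver cell types were set beside the kinases as counts. Of 4 tested lymphocyte markers all had positive differences and none was called, with a median of 0.62, and their list mean was 0.08, 0.80 and 0.27 in NASH 1, 2 and 3, against −0.47, −0.32 and −0.36 in Control 1, 2 and 3. Of 3 tested Kupffer cell or macrophage markers 2 had positive differences and none was called (median 0.11). For stellate cells 2 of 4 were positive (median −0.07), for endothelial cells 2 of 2 (median 0.24) and for cholangiocytes 1 of 2 (median −0.16), with none called. The lymphocyte list mean was highest in NASH 2, the NASH array with the lowest Pdk4 log2 signal. In deposited signals Pdk4 was slightly lower in NASH 3, at 34.1 against 34.9 in NASH 2. Coro1a and Cd48 were highest there too, whereas Cd4 and Klrk1 were highest in NASH 3.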
